A study of Mus musculus with 4 samples.

Results

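The serpins are a family of protease inhibitors and related proteins, and their transcripts were read here in the livers of 4 ABCA1-transgenic mice. Members were the probe sets whose single gene symbol begins with Serpin, a clade letter from a to i and a number. The rule found 39 probe sets of 30 genes, among 22626 probe sets and 12393 genes in all. Each gene was represented by its probe set with the highest mean signal. The 30 genes fall into 8 clades: 8 genes in clade a, 14 in clade b, 2 each in clades f and i, and 1 each in clades c, d, g and h. A further 3 probe sets carry several symbols that include a serpin, and these were not members.

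The mice were ABCA1-TG males of the C57BL/6 strain, 5 to 6 months old and kept on the NIH36 diet, with 1 liver array for each of 4 biological replicates (mouse 1 to mouse 4). ABCA1 is a membrane transporter that loads cholesterol and phospholipid onto apolipoprotein A-I. The labels disagree on a further allele: the series title gives an LDL receptor -/- background and the sample descriptions LDL receptor +/-. They name neither the species of the transgene nor the promoter that drives it, and wild-type arrays were not analysed here, so every comparison below is between the 4 transgenic mice.

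Most serpins trap a target protease through an exposed loop. The protease cuts the loop and is left bound to the inhibitor, so each molecule works once. The liver secretes many serpins into plasma, where they hold blood clotting, clot lysis, complement and the elastase of neutrophils in check. Clade b members mostly stay inside cells, and a few family members inhibit nothing and serve as hormone carriers or chaperones.

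Signals were linear intensities scaled to the same trimmed mean on each array, and levels are given as log2 of the intensity. The labelled tissue was borne out by hepatocyte transcripts: albumin (Alb) measured 15.96 ± 0.08 (SD, n = 4), and all 8 measured hepatocyte markers lay above the background bound described below. Abca1 measured 12.82 ± 0.17 (SD, n = 4). Arrays correlated with each other at Pearson's r of 0.950 to 0.959 across probe sets. Mouse 1 stood apart in skeletal muscle markers and in control signals. The median difference of skeletal muscle markers from the other 3 mice was -2.59 there, with 0 of 13 higher. Their log2 summed intensity ran from 10.16 in mouse 1 to 13.40 in mouse 2, with 0 markers at zero and 4 of 13 at or below the bound. Its 18S control signal was the highest, at 9.95 against 8.75 to 8.98, while the log2 ratio of its Gapdh control probe sets (3-prime over 5-prime) was 1.67, below the 1.94 to 2.03 of the others.

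Promoter sequence is shown for 5 members, because the letters that a liver transcription factor reads occur both in the most strongly detected serpins and in serpins at background. HNF1 is a homeodomain factor of hepatocytes, and its half-site was searched as GTTAAT on both strands in the 250 bases before each gene's start. RefSeq promoters (build GRCm38.p6) were matched for 26 of the 30 genes. The half-site is in capitals, the sequences run 5′ to 3′ on the gene's strand, and Serpinc1 is shown as a strongly detected gene without these letters.
Serpina1b, chr12:103738190-103738439, - strand: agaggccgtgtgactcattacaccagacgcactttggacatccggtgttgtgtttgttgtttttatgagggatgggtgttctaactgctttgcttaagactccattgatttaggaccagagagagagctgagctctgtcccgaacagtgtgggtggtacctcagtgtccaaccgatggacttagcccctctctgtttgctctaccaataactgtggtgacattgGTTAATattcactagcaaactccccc
Serpina1c, chr12:103904951-103905200, - strand: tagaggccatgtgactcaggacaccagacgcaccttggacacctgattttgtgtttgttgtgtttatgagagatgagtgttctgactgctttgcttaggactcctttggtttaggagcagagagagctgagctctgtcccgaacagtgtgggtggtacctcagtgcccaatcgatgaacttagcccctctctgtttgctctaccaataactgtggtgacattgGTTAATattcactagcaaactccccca
Serpinc1, chr1:160978333-160978582, + strand: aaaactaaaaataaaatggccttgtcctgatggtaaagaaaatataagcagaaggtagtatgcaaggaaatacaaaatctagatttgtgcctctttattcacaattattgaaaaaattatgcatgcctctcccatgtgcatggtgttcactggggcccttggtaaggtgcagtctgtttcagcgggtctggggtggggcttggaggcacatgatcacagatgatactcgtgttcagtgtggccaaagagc
Serpinb8, chr1:107589756-107590005, + strand: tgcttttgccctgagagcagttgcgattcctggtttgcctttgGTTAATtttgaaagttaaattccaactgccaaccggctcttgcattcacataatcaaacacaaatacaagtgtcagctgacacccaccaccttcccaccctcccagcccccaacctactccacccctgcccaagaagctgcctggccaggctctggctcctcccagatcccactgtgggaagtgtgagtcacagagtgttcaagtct
Serpini2, chr3:75270079-75270328, - strand: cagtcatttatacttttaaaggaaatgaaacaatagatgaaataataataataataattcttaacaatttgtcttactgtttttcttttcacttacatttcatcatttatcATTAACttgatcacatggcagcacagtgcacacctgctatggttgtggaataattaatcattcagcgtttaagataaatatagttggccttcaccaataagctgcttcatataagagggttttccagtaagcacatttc
The half-site was found in 4 of the 26 promoters, or 15.4%, against 7.49% of 27025 promoters in all. Of the serpins holding it, Serpina1b and Serpina1c had the highest signals of the family, and Serpinb8 and Serpini2 lay at background. In Serpina1b and Serpina1c it begins at base -26 and base -27 before the start, and these promoters are identical in 229 of 252 aligned columns (90.9%). No other pair of member promoters exceeded 60.2% identity. In Serpinb8 the match begins at base -207 and in Serpini2 at base -139. Of the other motifs searched, the HNF4 letters CAAAGTCCA (both strands) were in 0 of 26 promoters, against 0.451% of all. The STAT letters TTCNNNGAA, palindromic in their fixed bases, were in 3 (Serpinb2, Serpinb6a and Serpinb9c), against 8.13% of all, and TATAAA on the gene's strand in 2 (Serpina3a and Serpinb2), against 8.94%. No match says only that these letters are not in the window, and a match describes these letters only and does not show that the factor binds.

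The family divided into genes with very strong signals and genes near background. With no detection calls in the table, a background bound was taken from genes of sensory neurons. It was the 90th percentile of the mean level of 65 olfactory and vomeronasal receptor probe sets, 7.89, whose median was 5.49 and highest 8.53. Of the 30 serpins, 16 lay above the bound and 14 at or below it, while 38.5% of all 12393 genes lay at or below it. The group of secreted hepatocyte serpins was listed from textbook knowledge, and 10 of its 17 entries were measured. All 10 lay above the bound, with means of 11.24 to 15.99. The other 6 genes above it had means of 7.96 to 10.82. Nearest to the bound were Serpinb1a below it, at 7.85, and Serpinb6b above it, at 7.96. With the bound at the lower quartile of all probe sets, 6.30, only 8 serpins lay at or below it, and Serpinb1a, Serpinb11, Serpinb8, Serpinb6c, Serpinb7 and Serpini2 came to lie above. Probe sets differ in binding, so the order of levels between genes is an order of signals and not of transcript numbers.

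**Figure D1:**
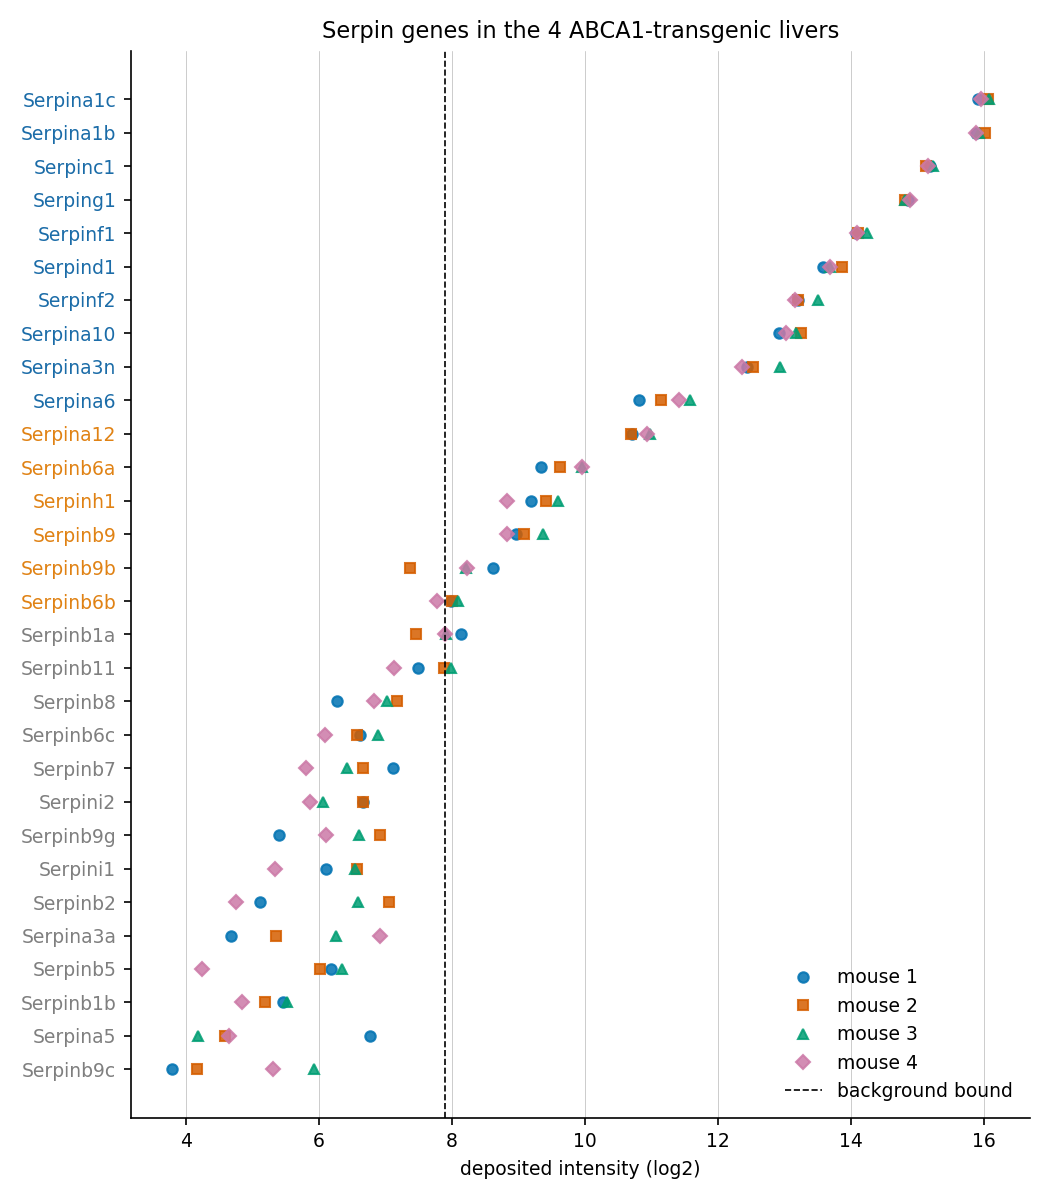
Deposited intensity (log2, horizontal axis) of the 30 serpin genes in each of 4 mice, in order of mean level; each point is 1 mouse, and the dashed line is the background bound of 7.89. Gene names in blue are secreted hepatocyte serpins, in orange other serpins above the bound, and in grey serpins at or below it; the points lie close together for most blue genes, less so for Serpina6 and Serpina3n (1.70-fold and 1.49-fold ranges), and many grey genes spread over more than 1 log2 unit.

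Clade a holds the most abundant plasma inhibitor, alpha-1-antitrypsin, which mice carry in several gene copies and which inhibits neutrophil elastase. Serpina1c (probe set 1448680_at) measured 15.90, 16.05, 16.07 and 15.95 in mice 1 to 4. Serpina1b (1418282_x_at) measured 15.87, 16.02, 15.92 and 15.87. The highest and lowest mouse differed by only 1.12-fold and 1.11-fold, and which mice these were changed with the scaling of the arrays for both genes. The copies are near-identical, so either probe set may read transcripts of other copies, and the 2 values are not separate measurements of 2 genes.

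The inhibitors of clotting were close between the mice. Serpinc1 (1417909_at), antithrombin, which inhibits thrombin and factor Xa, measured 15.19, 15.13, 15.23 and 15.15, an SD of 0.05. Serpind1 (1418680_at), heparin cofactor II, an inhibitor of thrombin, measured 13.57, 13.85, 13.68 and 13.69. Mouse 1 was the low one for Serpind1 and mouse 2 the high one, 1.22-fold apart, whereas with equal array medians the lowest was mouse 3 and the highest mouse 4. Serpina10 (1424758_s_at), the protein Z-dependent inhibitor of factor Xa, measured 12.91, 13.25, 13.18 and 13.02. It had the same lowest and highest mouse as Serpind1, with a 1.26-fold difference, and kept both after quantile normalization and after equal array medians were set.

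The inhibitors of complement and of clot lysis were likewise strongly detected. Serping1 (1416625_at), the C1 inhibitor, had the smallest spread of the 16 serpins above the bound as deposited, at 14.85, 14.81, 14.80 and 14.88, an SD of 0.03 and a 1.05-fold range. The SD was 0.02 after quantile normalization but 0.13 with equal array medians, above the 0.05 of Serpina1c under that scaling. Serpinf2 (1417498_at), alpha-2-antiplasmin, measured 13.20, 13.19, 13.50 and 13.15. Mouse 3 was the 1 high mouse as deposited, 0.32 above the mean of the others, and without it the SD fell from 0.16 to 0.03. The mouse 3 difference was 0.38 after quantile normalization and 0.20 with equal array medians. Serpinf1 (1416168_at), pigment epithelium-derived factor, which inhibits no protease, measured 14.07, 14.10, 14.23 and 14.08. Mouse 3 lay above the rest as deposited and after quantile normalization, but with equal array medians mouse 4 was highest. The SD as deposited was 0.07 with mouse 3 and 0.02 without.

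The widest of the 10 secreted members were a hormone carrier and an acute phase inhibitor. Serpina6 (1448506_at), corticosteroid-binding globulin, measured 10.81, 11.14, 11.58 and 11.41. Its 1.70-fold range ran from mouse 1 to mouse 3, and mouse 1 was also the lowest under both other scalings, whereas with equal array medians the highest was mouse 4. Serpina3n (1419100_at), a mouse relative of alpha-1-antichymotrypsin that rises in inflammation, measured 12.43, 12.52, 12.93 and 12.36. Mouse 3 was highest, 0.50 above the mean of the others. That difference was 0.54 after quantile normalization and 0.38 with equal array medians, and without mouse 3 the SD fell from 0.26 to 0.08. Serpina3n belongs to a cluster of close copies, so its probe set may read other copies too. In a liver piece, fewer cells of a type and less RNA per cell cannot be told apart.

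The remaining serpins above the bound act outside plasma inhibition or inside cells. Serpina12 (1421092_at), vaspin, known from fat tissue, measured 10.70, 10.68, 10.98 and 10.92. Serpinh1 (1456733_x_at), the collagen chaperone HSP47 of the endoplasmic reticulum, measured 9.18, 9.42, 9.60 and 8.83, with mouse 3 highest and mouse 4 lowest under all 3 scalings. Markers of stellate cells and fibroblasts, which make collagen, lay a median of 0.31 above the other mice in mouse 3 as deposited (7 of 10 higher). In mouse 4 they lay 0.07 above (7 of 10 higher). Of all 12393 genes, 7415 were higher in mouse 3 and 5314 in mouse 4. With equal array medians these markers lay 0.20 above in mouse 3 (7 of 10) and 0.21 above in mouse 4 (8 of 10). Their log2 summed intensity ran from 13.94 to 14.12, with 0 values at zero and 4 of 10 markers at or below the bound. Their part in the Serpinh1 values was not tested.

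Within clade b, 4 of 14 genes lay above the bound. Serpinb6a (1450138_a_at), a cytosolic inhibitor, measured 9.34, 9.63, 9.95 and 9.96, with mouse 1 the low one, at -0.51 from the mean of the others. Serpinb6a lay -0.12 from the mean of the others in mouse 2, 0.31 in mouse 3 and 0.32 in mouse 4. Of 13 muscle markers, 0, 13, 10 and 13 were above the other mice in mice 1 to 4. Among all 12393 genes these counts were 5300, 7181, 7415 and 5314. Exocrine pancreas markers (0 of 11 higher) and bile duct markers (1 of 7) were also low in mouse 1. The part of these markers in the Serpinb6a values was not tested. Serpinb9 (1422601_at), which inhibits granzyme B and protects cells from their own or another cell's killing granules, measured 8.97, 9.09, 9.36 and 8.83. Macrophage markers lay above the other mice in 10 of 10 cases in mouse 3, where Serpinb9 was highest, with a median of 0.23. In mouse 4, where Serpinb9 was lowest, 6 of 10 were above (median 0.09). Of all 12393 genes, 7415 were above in mouse 3 and 5314 in mouse 4 as deposited. With equal array medians 7 of 10 macrophage markers were above in mouse 3 (median 0.11) and 8 of 10 in mouse 4 (median 0.23). Their part in the Serpinb9 values was not tested. These markers had log2 summed intensities of 15.03 to 15.38, with 0 at zero and 10 of 10 above the bound.

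Serpinb9b (1422668_at), a close copy of Serpinb9, had the largest spread above the bound. It measured 8.62, 7.37, 8.22 and 8.22, a 2.38-fold range, with mouse 1 highest and mouse 2 lowest under all 3 scalings. Without mouse 2 its SD fell from 0.53 to 0.23. Serpinb6b (1422804_at) ran from 7.78 in mouse 4 to 8.09 in mouse 3, an SD of 0.13. With levels this close to the bound, these values rest on weak signals.

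The 14 genes at or below the bound included 10 of clade b. Serpinb1a (7.85 ± 0.29, SD, n = 4), an inhibitor of neutrophil proteases, and Serpinb11 (7.62 ± 0.39, SD, n = 4) had the highest means among them. Serpinb8, Serpinb6c and Serpinb7 followed with means of 6.82, 6.54 and 6.50, and Serpinb9g, Serpinb2, Serpinb5, Serpinb1b and Serpinb9c with 6.25, 5.88, 5.70, 5.26 and 4.80. Serpinb2 is the plasminogen activator inhibitor of macrophages and Serpinb5 is maspin of epithelia. In clade i, Serpini1, the neuroserpin of neurons, averaged 6.14 and Serpini2, known from the exocrine pancreas, 6.31. Serpini2 measured 6.67, 6.66, 6.06 and 5.86, all under the bound, with mice 1 and 2 above mice 3 and 4. Its lowest mouse was mouse 4 as deposited and mouse 3 after quantile normalization. Exocrine pancreas markers were above the other mice in 11 of 11 cases in mouse 2 and in 0 of 11 in mouse 1. Of all 12393 genes, 7181 were above in mouse 2 and 5300 in mouse 1. At or below the bound were 6 of the 11 markers, and their part in the Serpini2 values was not tested. The remaining members were Serpina5, the protein C inhibitor, and Serpina3a, with means of 5.05 and 5.80. Serpina5 measured 6.77 in mouse 1 and 4.58, 4.19 and 4.66 in mice 2 to 4, all under the bound.

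Differences between mice were smaller in the secreted group than in the genes near background, as they were for all genes of those levels. The median SD was 0.10 for the 10 secreted serpins, 0.26 for the 6 others above the bound and 0.56 for the 14 at or below it. That last value was 0.35 without mouse 4 and 0.98 for the 8 genes at or below the lower-quartile bound. Over all genes in the level range of the secreted serpins (1921 genes) it was 0.15, and over all genes in the level range of the 14 (3677 genes) it was 0.51. Pairs of mice differed by a median of 0.05 to 0.17 across the secreted serpins and of 0.33 to 0.80 across the 14. Set against the prior SD that limma fitted at each gene's level, the spread was above the prior in 4 of 10 secreted serpins and 7 of 14 at or below the bound, beside 46.7% of all genes. The furthest above it were Serpina6 at 1.88 times, Serpinb9b at 1.77 times and Serpina3n at 1.61 times, and the furthest below were, as deposited, Serping1 at 0.27 times and Serpinc1 at 0.37 times. With equal array medians the SD of Serping1 was 0.13, about its prior SD as deposited of 0.13, and that of Serpinc1 was 0.09.

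**Figure D2:**
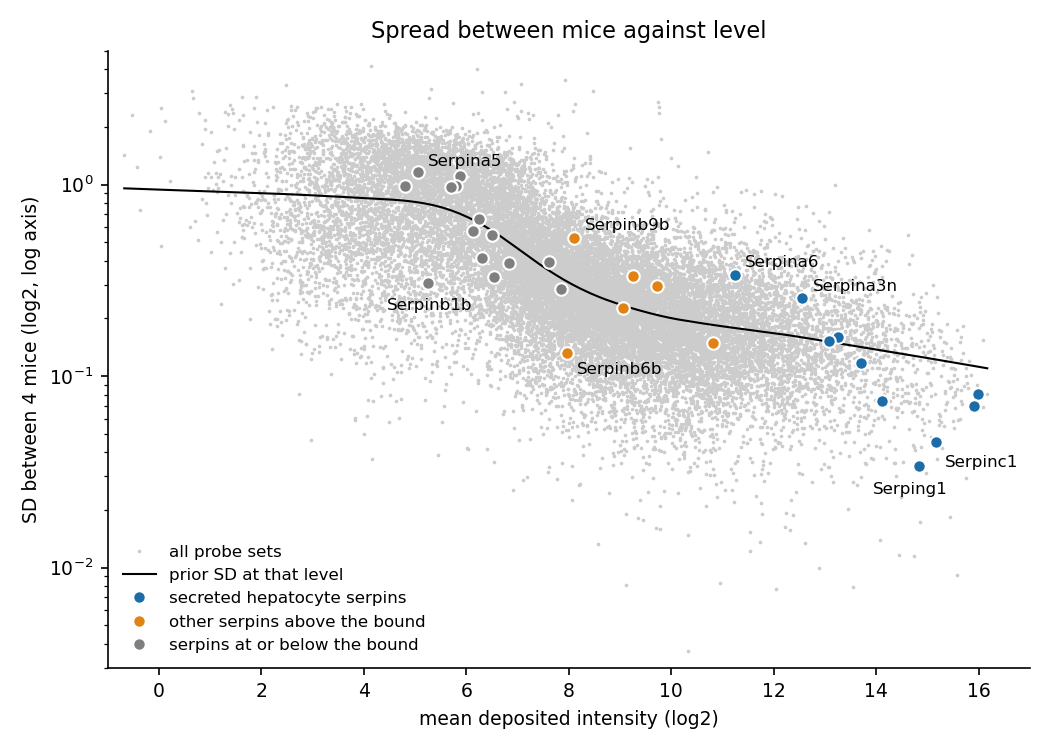
SD between the 4 mice (log2 units, log axis) against mean deposited intensity (log2) for all 22626 probe sets in grey dots, with limma's prior SD as a line and the 30 serpin genes as large points coloured by group. Serpina6, Serpina3n and Serpinb9b lie above the line, while Serping1 and Serpinc1 lie far below it as deposited, at SDs of 0.03 and 0.05 (0.13 and 0.09 with equal array medians).

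No serpin passed a test of excess spread or of a shared difference between mice. An F-test of excess spread against limma's prior variance, adjusted over 22626 probe sets, called 0% of all probe sets and 0 of 39 serpin probe sets. The adjusted p of this F-test ran from 0.977 to 1.00 for the serpins. The smallest adjusted p of this F-test against limma's prior over all probe sets was 0.247. The muscle marker Myh1 had that value, with an SD 12.3 times its prior. The test could thus call only very large excesses, and no call does not show that serpins were equal between mice. The share at an unadjusted p under 0.05 in this F-test was 3.71% of all probe sets (839) and 1 of 39 serpin probe sets. That 1 was the weaker one of Serpina12, whose adjusted p in this F-test was 0.977. A prior without robust estimation also called 0 probe sets, with 921 at an unadjusted p under 0.05. A further limma-moderated F-test asked whether the probe sets of a gene move together between mice, over 4956 genes with at least 2 probe sets. This limma-moderated F-test called 0% of genes and 0 of 8 serpins, with adjusted p from 0.660 to 0.934 for the serpins. The share under 0.05 before adjustment was 7.43% of genes (368) and 1 of 8 serpins, Serpinb5. Leaving out probe sets under the lower quartile of level gave 6 calls in the first test, and a trend of the variance on level gave 19 in the second test, with 0 serpins in either. The p-values of the first test set a probe set's spread against the spread usual at its level. Those of the second set a gene's difference between mice against the disagreement of its probe sets. The titles number biological replicates without saying what was kept separate, so both concern these 4 samples only.

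More serpins were highest in mouse 3 than in any other mouse, and this count depended on how arrays were scaled. As deposited, 15 of 30 were highest in mouse 3, against 7 for mouse 2, 5 for mouse 1 and 3 for mouse 4, while 33.5% of all genes were highest in mouse 3. Of the 10 secreted members, 6 were highest in mouse 3 as deposited (25.2% of all genes in their level range) and 6 after quantile normalization. With equal array medians 2 were highest in mouse 3 and 7 in mouse 4, beside 23.1% and 33.1% of all genes. For this scaling no share in their level range is given, so these shares are not of like level. As deposited, mouse 4 was highest in 31.1% of genes in that range, against 19.3% of all genes. After quantile normalization 12 of 30 serpins were highest in mouse 3 (28.2% of all genes). With equal array medians only 8 were (23.1% of all genes), and 10 were highest in mouse 4 (33.1% of all genes). The median of the secreted group in mouse 3 was 0.11 above the other mice as deposited, 0.16 above after quantile normalization and -0.0063 with equal array medians. Over the 3 scalings, 7 of the 16 genes above the bound kept the same highest mouse. These were Serpina3n, Serpinf2, Serpinh1 and Serpinb9 with mouse 3, Serpina10 with mouse 2, Serpinb6a with mouse 4 and Serpinb9b with mouse 1. The median difference of hepatocyte markers in mouse 3 from the other mice was -0.14 as deposited, with 0 of 8 higher. Higher there were 7415 of all 12393 genes, and 866 of the 1921 in the level range of the secreted serpins. After quantile normalization the marker median was -0.08, with 2 of 8 higher, and with equal array medians -0.26, with 0 of 8. The log2 summed intensities of these markers ran from 18.27 to 18.49 over the mice. Their part in the serpin values was not tested.

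**Figure D3:**
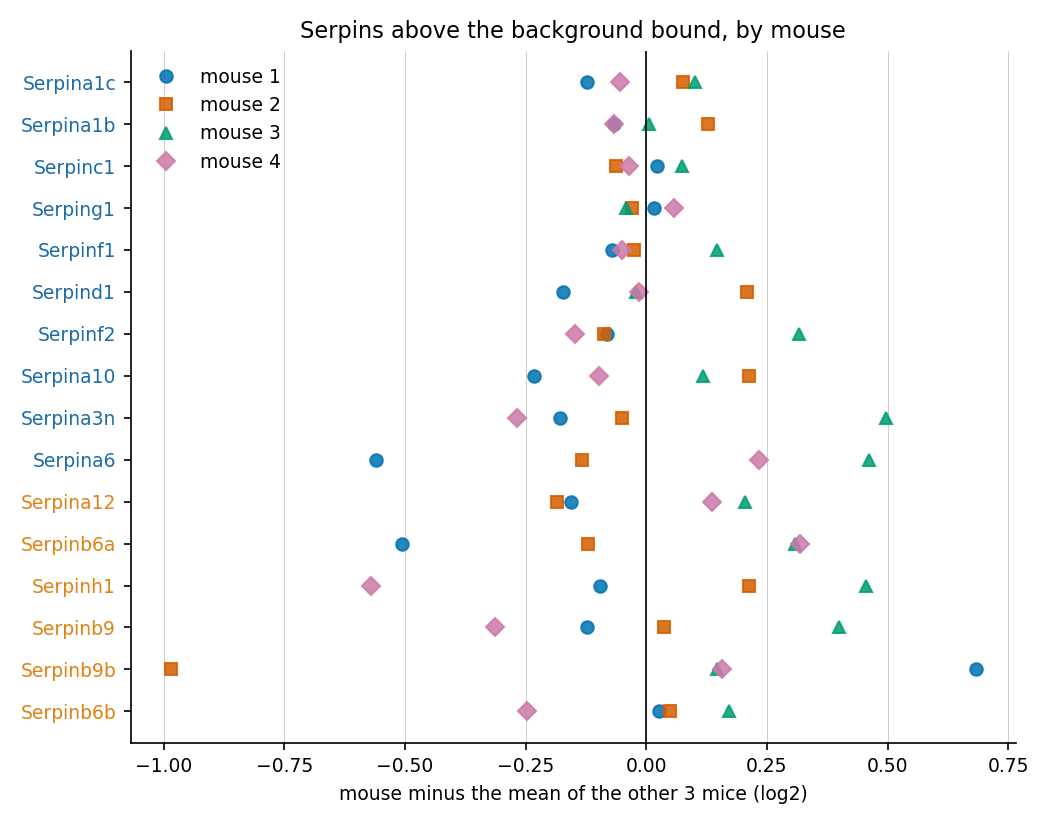
Difference of each mouse from the mean of the other 3 mice (log2, horizontal axis) for the 16 serpins above the background bound, in order of mean level, with 1 point per mouse and values as deposited. Mouse 3 lies right of zero for 14 of the 16 genes, beside 4403 of 7618 among all genes above the bound. The median of the 16 in mouse 3 is 0.16 as deposited and 0.04 with equal array medians. Serpinb9b has the widest differences, from -0.99 in mouse 2 to 0.68 in mouse 1.

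Some serpin genes that follow each other along a chromosome differed widely in signal, and others were alike. The 30 genes matched RefSeq genes of GRCm38.p6 by Entrez identifier and lie on 8 chromosomes, with 8 on chromosome 12, 9 on chromosome 13 and 6 on chromosome 1. In order along chromosome 12, where all clade a members lie, Serpina10, Serpina6, Serpina1b, Serpina1c and Serpina12 were above the bound. The next ones, Serpina5 and Serpina3a, were below it, and the last, Serpina3n, was above it at 12.56. The 9 genes of chromosome 13, all of clade b, reached no more than 9.72, with 4 above the bound. On chromosome 1 the 5 clade b genes were at or below the bound, and Serpinc1, next in the order of measured serpins but not an adjacent gene, measured 15.17. Serpinf1 and Serpinf2 on chromosome 11 were alike at 14.12 and 13.26, and Serpini2 and Serpini1 on chromosome 3 at 6.31 and 6.14.

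**Figure D4:**
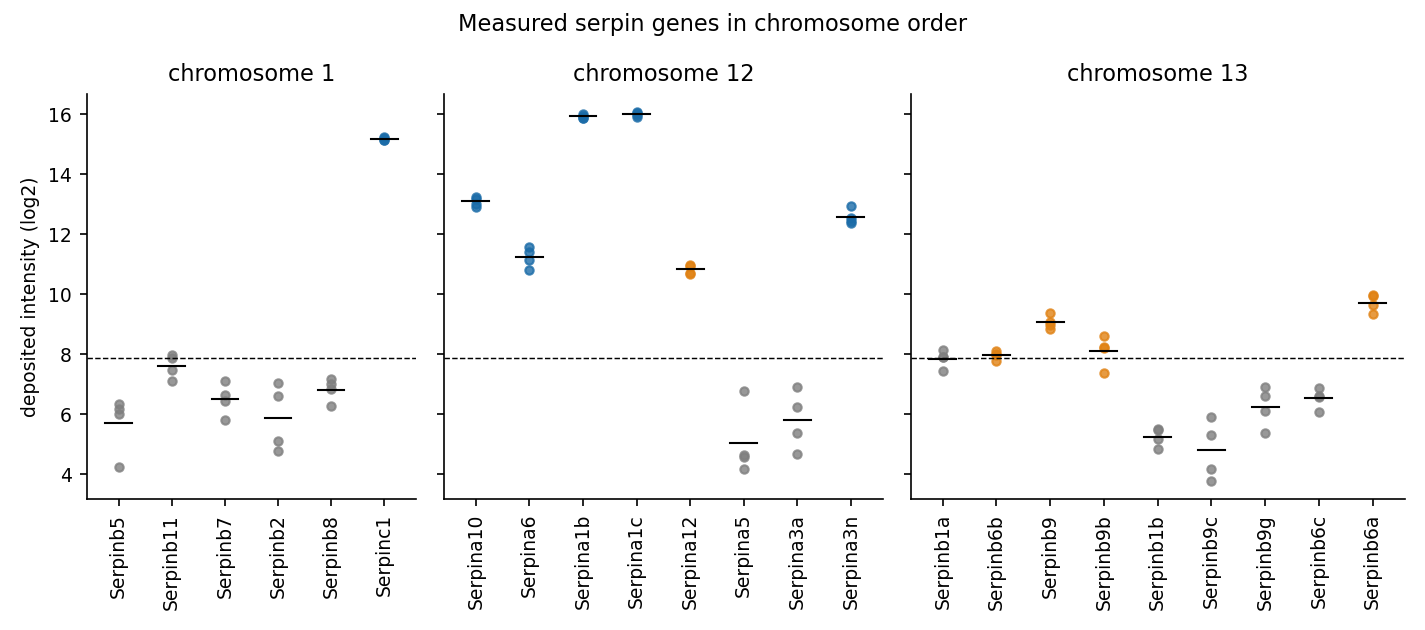
Deposited intensity (log2, vertical axis) of measured serpin genes in their order along chromosomes 1, 12 and 13; points are the 4 mice, short lines the means, and the dashed line the background bound of 7.89. Colours mark secreted hepatocyte serpins (blue), other serpins above the bound (orange) and those at or below it (grey), and Serpina5 and Serpina3a sit below the bound between Serpina12 and Serpina3n.

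For 8 genes there was more than 1 probe set, and these did not always give the same picture. The second probe set of Serpina12 (1421091_at) measured 3.98, 6.84, 7.79 and 7.31, a 14.0-fold range with mouse 1 lowest, beside the 1.22-fold range of the chosen one. Its mean of 6.48 was below the bound, so the wide range rests on weak signals. Serpinh1 averaged 9.26 on the chosen probe set and 7.64 on the other (1450843_a_at), which lies below the bound and has mouse 1 lowest in place of mouse 4. As deposited, the probe sets of Serpina1b both had mouse 2 highest and gave SDs of 0.07 and 0.08. For Serpinf1 the chosen probe set had mouse 3 highest, while the other (1453724_a_at) measured 10.70, 11.04, 10.68 and 10.50 with mouse 2 highest. All 3 probe sets of Serpinb5 had mouse 4 lowest, at 4.25, 4.31 and 2.93, each under the bound. Probe sets of 1 array share its RNA and hybridization, so they are not independent animals.

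**Figure D5:**
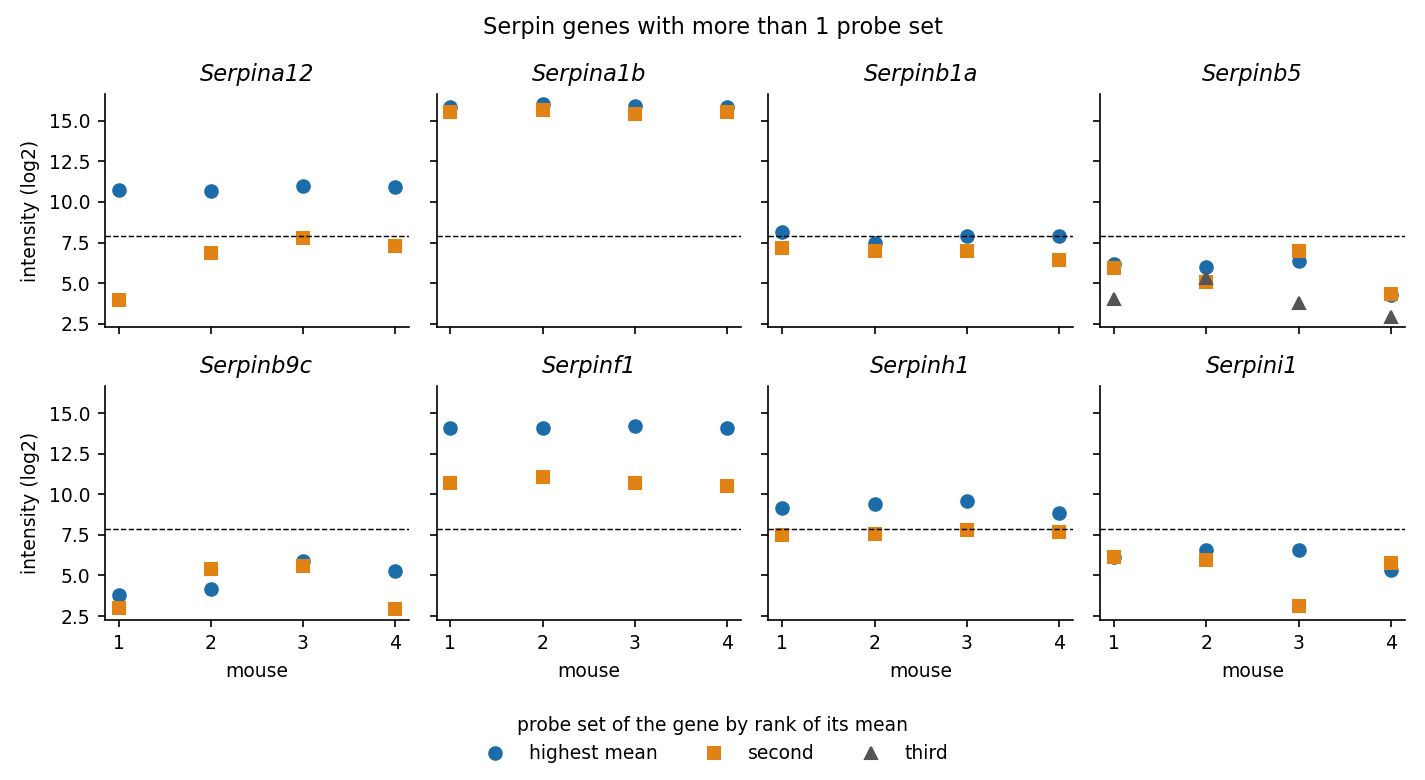
Deposited intensity (log2, vertical axis) in mice 1 to 4 for each probe set of the 8 serpin genes with more than 1, ranked by mean within the gene; the dashed line is the background bound of 7.89. The second probe set of Serpina12 falls to 3.98 in mouse 1, while the first stays between 10.68 and 10.98.

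The proteases that serpins inhibit were looked at beside them. Of 31 listed target proteases 28 were measured, 18 above the bound, and 0 passed the F-test of excess spread against limma's prior. In that test 1 had an unadjusted p under 0.05, beside 3.71% of all probe sets. That was F10, factor X, the zymogen of a target of Serpinc1 and Serpina10. Its chosen probe set measured 13.33, 14.17, 14.19 and 13.99, with mouse 1 the low one. F10 has more than 1 probe set, and the limma-moderated F-test of a shared difference gave it an adjusted p of 0.730. Among the 18 above the bound F10 had the largest SD, and F11, factor XI, the next, at 10.56, 11.18, 11.27 and 10.76. Ctsl, the lysosomal protease cathepsin L, had the smallest spread as deposited, at 14.35 ± 0.04 (SD, n = 4), and F2, prothrombin, measured 14.41, 14.46, 14.43 and 14.32. Their median spread relative to the prior at their level was 0.90 times, beside 0.96 times for all genes. The neutrophil and mast cell proteases Elane, Ctsg, Prtn3 and Cma1 lay below the bound, as did the granzymes Gzma and Gzmb.

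The classical acute phase genes were mostly not above the other mice in mouse 3, where Serpina3n was highest. Of 25 listed acute phase genes 24 were measured, 0 passed the test of excess spread over all probe sets and 4 had an unadjusted p under 0.05, or 16.7% of them beside 3.71% of all probe sets. In mouse 3, 8 of the 24 were above the other mice as deposited. Their median was -0.07 (-0.04 after quantile normalization and -0.18 with equal array medians). Beside these, 7415 of all 12393 genes were above in mouse 3 as deposited. In the level range of the secreted serpins 866 of 1921 genes were, with a median of -0.03. The acute phase means ran from 7.95 to 15.52, with a median of 12.54. Lcn2, lipocalin 2, measured 10.56, 10.46, 8.93 and 8.54, high in mice 1 and 2, and Saa2, serum amyloid A, 9.92, 8.67, 8.72 and 8.47, high in mouse 1. Fga, a fibrinogen chain, had an SD of 0.02. A test of the difference between Serpina3n and these genes was not made.

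The measured genes of a list of regulators of liver transcription and of the cytokine response were above the bound. The list also holds Gpld1, a secreted phospholipase that is no such regulator, at 13.22 ± 0.16 (SD, n = 4). Of 19 listed genes 16 were measured, and 0 passed the F-test of excess spread against limma's prior. In that test 1 (Onecut1) had an unadjusted p under 0.05, beside 3.71% of all probe sets. Onecut1, a liver homeodomain factor, measured 8.45, 9.22, 9.89 and 9.52, and Foxa1, a forkhead factor, 10.36, 11.11, 11.01 and 11.26, both lowest in mouse 1. Hnf4a, the nuclear receptor that drives many hepatocyte genes, measured 14.25 ± 0.05 (SD, n = 4).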

How the data were processed

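Liver RNA of 4 mice was measured on 1 oligonucleotide array each. RNA was amplified from 2 ug, per the labels' protocols, by the RiboAmp procedure. The deposited values are linear intensities, 1 per probe set and array, and RMA, with no version, is the tool named in the submitters' processing notes. No source used here describes the background step. The lowest intensity was 0.1, and each array has a mean of 1000.4 to 1000.5 once 2% is trimmed per end, so the deposited intensities are unlike usual RMA output.

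Deposited intensities were put on the log2 scale without a pseudocount, floor or further normalization, after leaving out 64 control probe sets. Gene names came from the platform annotation, where 691 probe sets have several symbols and 1555 none.

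limma 3.58.1 (R 4.3.3) gave a robust prior for the variance between mice at each level, and every probe set was set against it by an upper-tail F-test. This F-test was computed outside limma, with limma's largest prior degrees of freedom used for every probe set. Benjamini-Hochberg adjustment ran over all probe sets (threshold 0.05). For genes with at least 2 probe sets, the mean square between mice was compared with the limma-moderated residual of a probe set and mouse layout, adjusted likewise. Both tests were tested on simulated data, where each unchanged probe set was drawn at exactly its prior SD. Real probe sets vary around that prior, so the simulation does not show how the tests behave on these arrays. The number of arrays limits the precision: with 4, the 95% limits of an SD are 0.57 and 3.73 times the estimate.

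Genes named were all secreted hepatocyte members, the 6 widest and 3 narrowest serpins by SD above the bound, and the 2 widest and 1 narrowest genes of each further list. Others are named for their role or after their values were seen. Members and lists were chosen with earlier results of these data known. Promoters were aligned with Biopython 1.88. Alternatives were other scalings, a floor of 64, probe set and gene rules, other priors, another bound and leaving out each mouse.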

Additional observations from a re-analysis of the deposited data

Results flagged for a closer look

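In 2 of 30 serpins the gap between the highest or lowest mouse and the nearest other exceeded Dixon's 95% critical share of the range over the 4 mice, at 0.845 of it for Serpinb5 and 0.858 for Serpinf2. Such a gap appeared in 5.91% of all genes (732 of 12393), and chance gives it in about 1 in 20 groups. Serpinb5 measured 4.25 in mouse 4 against 6.02 to 6.34 in the other mice, with all 4 values under the background bound. Serpinf2, alpha-2-antiplasmin, measured 13.50 in mouse 3 against 13.15 to 13.20 in the others. Both gaps are of values as deposited. With equal array medians Serpinf2 measured 13.25, 13.12, 13.41 and 13.25 in mice 1 to 4, so mouse 3 stood less far apart.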

How the results depend on the processing

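Under every alternative run, 0 serpins passed either test. Over all features the test of excess spread called 6 probe sets without those under the lower quartile of level. The test of a shared difference called 1 gene with intensities under 64 raised to 64, and 19 genes with a trend of the variance on level, an alternative chosen after seeing the data. The number of serpins at or below the bound was 8 with the lower quartile as bound, and 13 to 15 without 1 mouse. Equal array medians lowered the number of serpins highest in mouse 3, a count added after seeing the data, from 15 to 8. The share of all genes highest in mouse 3 went from 33.5% to 23.1%. The same scaling gave a median difference of the secreted serpins of -0.12 for mouse 2, of -0.0063 for mouse 3 and of 0.088 for mouse 4. The cause of these moves was not tested. Without 1 mouse that count was 16 to 21, and the secreted median of mouse 2 ran from -0.041 to 0.075, the latter without mouse 3. The secreted group's median SD stayed between 0.08 and 0.12. No paired analysis was possible because the samples form 1 group. Signals near background limit what the 14 low serpins show.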
